A study of Mus musculus with 4 samples.

Results

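The immediate early genes described here are 10 transcripts that cells switch on within minutes of a stimulus: Fos, Fosb, Jun, Junb, Jund, Egr1, Dusp1, Ier2, Ier3 and Atf3. They were chosen by name, as every probe set annotated to a single one of these symbols, a rule that uses no measured value, although earlier results of these data were known when the names were picked. This gave 15 probe sets for all 10 genes, of 12488 probe sets on the array. Of these 15, 10 probe sets reached a mean signal of 50 over the 4 arrays, 1 for each gene, and entered the comparison, which held 5783 probe sets.

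The samples were lower molar tooth regions taken from NMRI mice on embryonic day 14 and held for 24 h in organ culture in medium with fetal calf serum. One group was exposed to 1 µM TCDD (2,3,7,8-tetrachlorodibenzo-p-dioxin, a dioxin and strong ligand of the aryl hydrocarbon receptor), the other to the solvent DMSO, at 0.65%. Each group had 2 arrays (murine U74v2A, Affymetrix), and every array carried RNA of a pool of about 60 explants taken from 3 culture experiments. The starting RNA was 11 µg for replicate 1 of either group, 7 µg for DMSO replicate 2 and 8 µg for TCDD replicate 2, and ascorbic acid is listed in the medium of DMSO replicate 2 alone. The pools are whole tooth regions, so fewer cells of a type and less RNA per cell cannot be told apart. The labels do not say that the pools of a group came from separate litters. The limma p-values rest on the spread between these 4 arrays, shared across probe sets.

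Immediate early genes are read without new protein synthesis, through transcription factors that are already in the cell and are activated by kinase cascades, such as serum response factor with its Elk partners and CREB. Most of their mRNAs are short-lived, so the transcripts come and go within hours of a pulse of signal, and a steady level reflects signalling that is still active. Fos and Jun proteins pair through leucine zippers to form AP-1, a dimer that binds DNA, while DUSP1 switches the kinases off again. The only time sampled here was 24 h after the start of exposure, so the first hours were not measured.

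The exposure and the tissue were checked first. Cyp1a1, a cytochrome P450 gene and the classical target of the dioxin receptor, rose from signals of 14.7 and 12.7 in DMSO to 194.8 and 210.5 in TCDD (limma adjusted p 3.68e-04), and Cyp1b1 rose too (adjusted p 9.18e-04). Of 12 listed dental mesenchyme genes 11 reached a mean signal of 50, as did 7 of the 10 epithelial genes on the array, with Krt5, Krt14 and Krt15, keratins of stratified epithelia, below 11 on every array. No marker of the 6 cell type lists was at 0 on any array at its brightest probe set. Krt15 read only 0.6 to 1.3, so a signal above 0 does not show that a cell type was present. The summed signal of 11 macrophage and leukocyte genes was 727 and 697 on the DMSO arrays and 927 and 929 on the TCDD arrays. The summed epithelial and mesenchymal signals were also higher on both TCDD arrays (epithelium 1881 and 2511 against 2634 and 2895, mesenchyme 4500 and 4985 against 5072 and 5425). A few bright genes make up much of these sums: Dsp, a desmosome gene, read 936.4 and 1346.5 in DMSO and 1379.2 and 1566.5 in TCDD, and Col1a1, a collagen gene, read 1960.8 and 1956 in DMSO and 2400.3 and 2277 in TCDD at its brighter probe set. By probe sets in the comparison, 5 epithelial ones had a higher mean in TCDD and 2 a lower one, with Cdh1, the E-cadherin gene, lower on both TCDD arrays (170.3 and 141.1 against 101.2 and 120.5). The mesenchymal ones were 8 higher and 6 lower (median log2 difference 0.05), and all 8 macrophage and leukocyte ones were higher. Over all probe sets in the comparison 51.1% were higher. Without the signal filter 10 of 19 macrophage and leukocyte probe sets were higher and 9 lower, where 39.3% of all probe sets were higher. The sums of the other lists overlapped between the groups: red blood cells had 4470 and 4943 against 3646 and 4824, endothelium 492 and 443 against 485 and 428, and skeletal muscle 826 and 349 against 1153 and 401, higher in TCDD within both replicate numbers. The part of any of these in the differences of the early genes was not tested.

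The letters in front of 4 of the genes are shown because their values carry most of what follows: Dusp1 and Jun are 2 of the 3 genes whose arrays separated by group, and Fos and Ier3 are those that differed most between the DMSO pools. Each line is the stretch of 250 bases before the RefSeq start on GRCm38.p6, at chr17:26508473-26508722 (minus strand) for Dusp1, chr4:95052223-95052472 (minus strand) for Jun, chr12:85473640-85473889 (plus strand) for Fos and chr17:35821463-35821712 (plus strand) for Ier3. Capitals mark matches on either strand to TGACG and TGACGTCA (core and full CREB/ATF element, the first lying within the second), GCGTG (core of the dioxin receptor element), TGANTCA (AP-1 element), the CArG box of serum response factor and TATAAA.
Dusp1: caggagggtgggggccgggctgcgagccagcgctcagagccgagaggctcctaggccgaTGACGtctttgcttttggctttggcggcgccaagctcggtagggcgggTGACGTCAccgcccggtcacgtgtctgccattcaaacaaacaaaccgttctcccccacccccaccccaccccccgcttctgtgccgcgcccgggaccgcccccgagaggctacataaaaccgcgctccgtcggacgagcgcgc
Jun: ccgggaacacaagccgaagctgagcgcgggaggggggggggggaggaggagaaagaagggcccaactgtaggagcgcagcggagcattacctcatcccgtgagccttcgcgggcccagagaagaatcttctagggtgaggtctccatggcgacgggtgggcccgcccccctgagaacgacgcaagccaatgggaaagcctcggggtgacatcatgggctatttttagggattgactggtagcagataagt
Fos: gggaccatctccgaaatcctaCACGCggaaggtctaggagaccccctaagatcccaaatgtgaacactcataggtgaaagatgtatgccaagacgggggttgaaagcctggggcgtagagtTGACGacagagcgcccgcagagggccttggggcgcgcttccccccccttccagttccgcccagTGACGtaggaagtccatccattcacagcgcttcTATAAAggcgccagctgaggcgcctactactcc
Ier3: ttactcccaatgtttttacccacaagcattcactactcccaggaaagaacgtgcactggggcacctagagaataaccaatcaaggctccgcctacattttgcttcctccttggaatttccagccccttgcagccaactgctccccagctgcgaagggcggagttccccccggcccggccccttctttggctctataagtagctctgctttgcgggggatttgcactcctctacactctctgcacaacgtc

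Letters of a CREB/ATF core stood in 5 of the 8 promoter windows that could be read (Dusp1, Fos, Fosb, Junb and Atf3), against 17.8% of all 32851 windows of this length. G or C made up 58.4% (Fos) to 68.8% (Fosb) of these 5 windows and 47.6% (Jund) to 61.2% (Jun) of the others. The median over all windows was 52.4%, and the part of base composition in the motif counts was not tested. Dusp1 alone held the full TGACGTCA, found in 1.55% of all windows, at bases 143 to 136 before the start. GCGTG was found in 3 of the 8 (Fos with 1 match, Junb and Atf3 with 2 each) and in 28.2% of all windows. TATAAA was found in Fos alone of the 8, at bases 33 to 28 before the start, and in 12.4% of all windows. No window of the 8 held TGANTCA or a CArG box, which occur in 6.75% and 1.47% of all windows. None of the 6 motifs was found in the windows of Jun, Jund and Ier3. A match is a run of letters and not a measured binding site. The search allowed no mismatch and read these windows alone, so it cannot show that a gene lacks such an element. The window of Jun held tgacatca, which differs from TGACGTCA in 1 letter and was not counted.

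After 24 h of TCDD none of the 10 immediate early genes changed past the limma test, and 7 of them had a higher mean in TCDD. Egr1, Dusp1 and Jun were higher on both TCDD arrays than on either DMSO array, by ratios of group means of 1.26 to 1.39. Ier3 had the largest difference, a ratio of 1.5, but its 2 pools within a group lay further apart than the groups. Fosb had the lowest ratio, 0.739, with 1 TCDD array low and the other level with DMSO. The log2 differences, TCDD minus DMSO on the log2(signal + 16) scale, had a median of 0.27, against 0.01 over all 5783 probe sets in the fit. The share with a difference above 0 was 51.1% over all of these, where it was 7 of 10 among the early genes. Without the signal filter 8 of the 15 probe sets of the early genes were higher and 7 lower, where 39.3% of all 12422 probe sets were higher. At a mean signal of at least 100 it was 6 of 6, where 54.1% of all 3832 probe sets were higher.

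**Figure D1:**
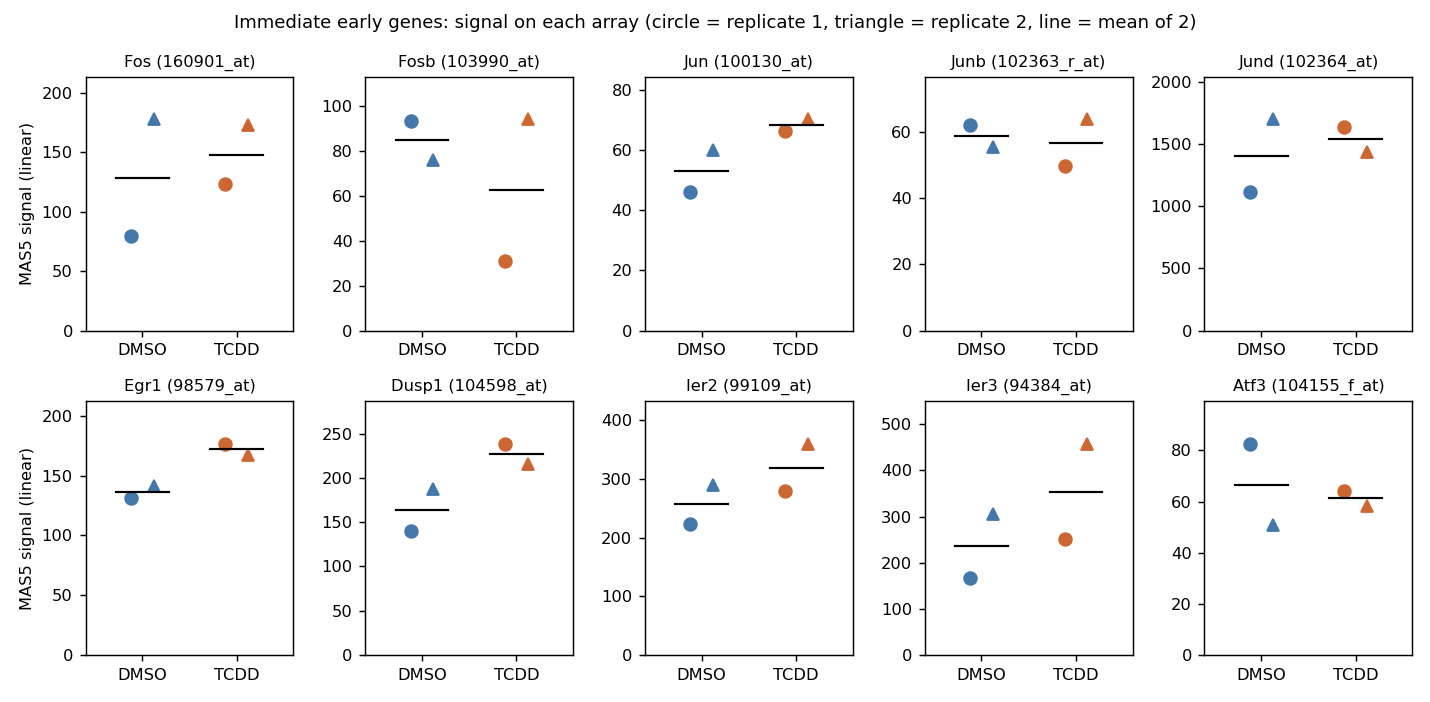
MAS5 signal (vertical axis, linear, from 0) of the 10 immediate early genes at their probe sets in the fit, on the 2 DMSO and the 2 TCDD arrays; circles are replicate 1, triangles replicate 2, and the line is the mean of 2 arrays. Only for Jun, Egr1 and Dusp1 do both TCDD points lie above both DMSO points.

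In limma, with the p adjusted over all 5783 probe sets, 0 of the 10 early genes passed 0.05, where 4 probe sets (0.0692%) did in all, and each of the 10 had an adjusted p of 0.997. At an unadjusted p under 0.05 there were 0 of 10 and 150 of 5783. The lowest unadjusted limma p among the early genes was 0.0588, for Dusp1. The groups did not overlap for 3 of the 10, all with TCDD higher. Over all probe sets the groups did not overlap for 29.8%, and both TCDD arrays were above both DMSO arrays for 15.3%, so 3 of 10 without overlap is near the background.

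Dusp1 encodes a dual-specificity phosphatase (MKP-1) that removes the activating phosphates from p38, JNK and ERK kinases. Its probe set 104598_at measured 139.8 and 187.4 on the DMSO arrays and 238.7 and 216.3 on the TCDD arrays. Both TCDD arrays were higher than either DMSO array, and the nearest arrays of the groups were 0.19 apart on the log2 scale. The log2 difference was 0.45 ± 0.21 (SE, n = 2 arrays each), with a 95% interval from -0.02 to 0.92, that is from 0.986-fold to 1.89-fold. This was the narrowest miss of 0 among the 10 genes. The difference was 0.26 without DMSO replicate 1 and 0.64 without DMSO replicate 2.

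Egr1, a zinc finger transcription factor that serum and growth factors induce, measured 131 and 141.1 on the DMSO arrays and 176.8 and 167.2 on the TCDD arrays at 98579_at. Its groups were apart, and its 2 pools were the closest of all 10 genes within DMSO, where replicate 2 minus replicate 1 was 0.1 on the log2 scale, and next to the closest within TCDD, where it was -0.07. The log2 difference was 0.31 ± 0.2 (SE), with an interval from 0.912-fold to 1.68-fold. A dimmer probe set of Egr1 (161802_i_at) read 15.2 and 5.6 in DMSO and 13.2 and 5.5 in TCDD, with no separation of the groups.

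The Jun family gave 3 different pictures. Jun, the principal partner of Fos in AP-1, measured 46.2 and 60 on the DMSO arrays and 66.5 and 70.3 on the TCDD arrays at 100130_at, so its groups were apart. Its log2 difference was 0.3 ± 0.23 (SE), with an interval from 0.86-fold to 1.75-fold, and it was 0.15 without DMSO replicate 1 and 0.44 without DMSO replicate 2. Jund, the family member that most cells keep at a steady level, measured 1118.2 and 1699.8 on the DMSO arrays and 1639.6 and 1440.8 on the TCDD arrays. The TCDD arrays of Jund lay between the 2 DMSO arrays, and its log2 difference was 0.15 ± 0.21 (SE). Junb, which can oppose Jun at some targets, read 62.2 and 55.5 in DMSO and 49.9 and 63.9 in TCDD at 102363_r_at. The TCDD arrays of Junb enclosed the DMSO arrays, with a log2 difference of -0.04 ± 0.24 (SE) that became 0.01 after quantile normalization. The other Junb probe set (102362_i_at) was at 9.9 and 12.7 in DMSO and 6.1 and 23.5 in TCDD. Leaving out DMSO replicate 1 turned the difference of Jund to -0.14 and that of Junb to 0.02, and leaving out TCDD replicate 1 turned that of Junb to 0.1.

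In the Fos family the 2 genes with a bright probe set had differences of opposite sign, each turning on 1 array. Fos measured 79.5 and 177.8 on the DMSO arrays and 123.3 and 172.8 on the TCDD arrays at 160901_at. DMSO replicate 1 was the low array, and the other 3 lay between 123.3 and 177.8. The log2 difference of Fos was 0.25 ± 0.31 (SE), and it was -0.26 without DMSO replicate 1 and 0.76 without DMSO replicate 2. Fosb, a close relative of Fos, measured 93.3 and 75.8 on the DMSO arrays and 31 and 93.9 on the TCDD arrays at 103990_at. TCDD replicate 1 was low and TCDD replicate 2 was level with DMSO replicate 1. The log2 difference of Fosb was -0.48 ± 0.35 (SE), and it was 0.13 without TCDD replicate 1 and -1.09 without TCDD replicate 2. A dim Fos probe set (161716_at), below the signal filter, read 19.8 and 8.5 in DMSO and 7.8 and 8.2 in TCDD. Both its TCDD arrays were lower than either DMSO array. Its log2 difference without the filter was -0.3, opposite in sign to that of 160901_at.

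Ier3, an early gene product linked to cell survival (also known as IEX-1), measured 166.8 and 305.8 on the DMSO arrays and 250.6 and 458 on the TCDD arrays at 94384_at. TCDD replicate 1 lay below DMSO replicate 2, so the groups overlapped, but within either replicate number the TCDD array was the higher. The log2 difference was 0.55 ± 0.31 (SE), with an interval from 0.908-fold to 2.37-fold, the widest on the upper side among the 10 genes. Without DMSO replicate 1 or TCDD replicate 2 the difference was 0.14, and without DMSO replicate 2 or TCDD replicate 1 it was 0.96 and 0.97. Ier2, a nuclear protein gene of the serum response, measured 222.7 and 290.3 on the DMSO arrays and 278.7 and 360 on the TCDD arrays at 99109_at. It overlapped by a single pair of arrays, and its log2 difference was 0.3 ± 0.22 (SE). The difference was 0.12 without DMSO replicate 1 or TCDD replicate 2, and 0.48 without DMSO replicate 2 or TCDD replicate 1.

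Atf3, a stress-induced member of the ATF/CREB family, read 82.6 and 50.7 in DMSO and 64.3 and 58.3 in TCDD at 104155_f_at. The TCDD arrays lay within the DMSO range, and the log2 difference was -0.07 ± 0.25 (SE). It was 0.21 without DMSO replicate 1. Its other probe sets were dimmer: 104156_r_at read 39.3 and 28 in DMSO and 34.2 and 22.4 in TCDD, and 161645_r_at was at or below 2 on all 4 arrays. The suffixes _f, _r and _i mark probe sets that share probes with related sequences or were designed under relaxed rules. They apply to all 3 probe sets of Atf3, both of Junb and the dimmer one of Egr1.

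**Figure D2:**
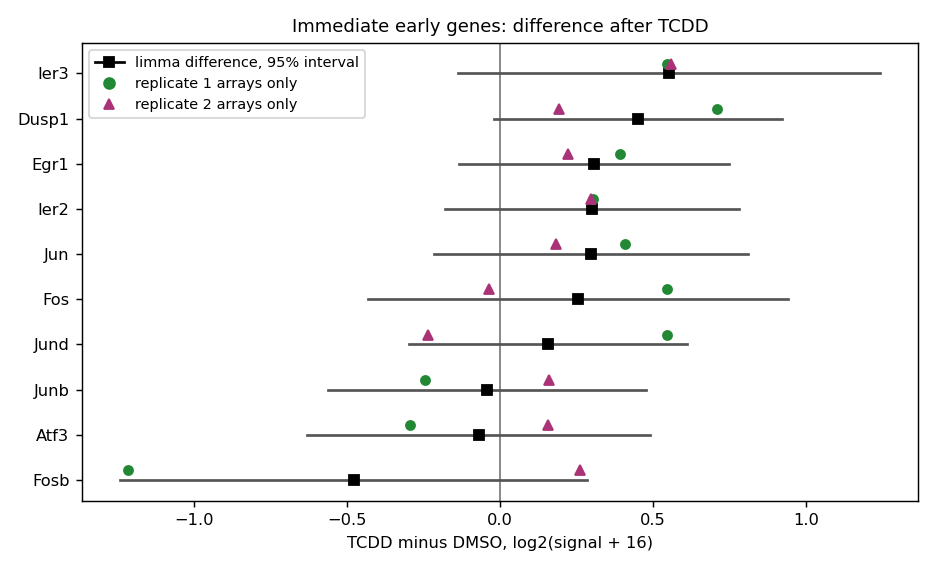
Log2 difference, TCDD minus DMSO, on the log2(signal + 16) scale (horizontal axis) for the 10 early genes; squares and lines are the limma difference with its 95% interval, circles the difference between the replicate 1 arrays alone, triangles that between the replicate 2 arrays alone. Every interval includes 0, and for Fos, Fosb, Jund, Junb and Atf3 the circle and the triangle lie on opposite sides of 0.

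The intervals set what limma could show on these 4 arrays. The largest fold that any interval of the 10 genes reached was 2.37 (Ier3) and the lowest was 0.423 (Fosb), so larger changes at 24 h lie outside the intervals. Changes of the size seen for Dusp1, Egr1 or Ier2 did not pass limma's adjusted p with 2 arrays a group. Most of the variance behind each SE and interval comes from the other probe sets (8.85 of 10.85 degrees of freedom), not from the gene's own arrays. Egr1 and Fosb had SEs of 0.2 and 0.35, with pools 0.1 and -0.07 apart (DMSO, TCDD) against -0.25 and 1.23. Without the signal filter, 0 of the 15 probe sets passed limma's adjusted p, with 0.979 the lowest, and 0 of 15 had an unadjusted p under 0.05.

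For 5 of the 10 genes the direction depended on which replicate number was compared. The share over all probe sets was not computed, so this is not read as a trait of these genes. Between the replicate 1 arrays 7 of the 10 were higher in TCDD, as were 2982 of all 5783 probe sets. Between the replicate 2 arrays it was 8 of the 10 and 2894 of 5783. The other genes, Jun, Egr1, Dusp1, Ier2 and Ier3, were higher in TCDD within both replicate numbers, while Fos, Fosb, Jund, Junb and Atf3 went one way between the replicate 1 arrays and the other way between the replicate 2 arrays. For Ier3 the difference was 0.54 between the replicate 1 arrays and 0.56 between the replicate 2 arrays, although the pools of a group were 0.82 apart in DMSO and 0.83 apart in TCDD. For Ier2 these differences were 0.3 and 0.3, and the pools were 0.36 and 0.35 apart. For Dusp1 they were 0.71 and 0.19. For Fosb they were -1.22 and 0.26, the largest disagreement of the 10 genes. The median difference over the 10 genes was 0.4 between the replicate 1 arrays and 0.19 between the replicate 2 arrays, where all probe sets gave 0.02 and 0.00.

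Replicate 2 was above replicate 1 in both groups for 4 of the 10 genes (Fos, Jun, Ier2 and Ier3), and for 30.8% of all probe sets in the fit. Within DMSO, replicate 2 was the higher array for 7 of the 10 and for 3046 of all 5783 probe sets. The median gap within DMSO was 0.32 over the 10, where it was 0.02 over all probe sets. The gap was widest for Fos, at 1.02, and Ier3 followed with 0.82. Within TCDD, replicate 2 was the higher for 6 of the 10 and for 2880 of all 5783 probe sets. The median gap within TCDD was 0.17 over the 10, where it was -0.001 over all probe sets. Fosb had the widest gap, at 1.23. Beside these gaps, the starting RNA was 11 µg in replicate 1 and 7 or 8 µg in replicate 2, ascorbic acid is listed for DMSO replicate 2, and the summed signal of 8 skeletal muscle genes was 826 and 1153 in replicate 1 against 349 and 401 in replicate 2 (DMSO and TCDD in turn). The part of any of these in the gaps was not tested.

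**Figure D3:**
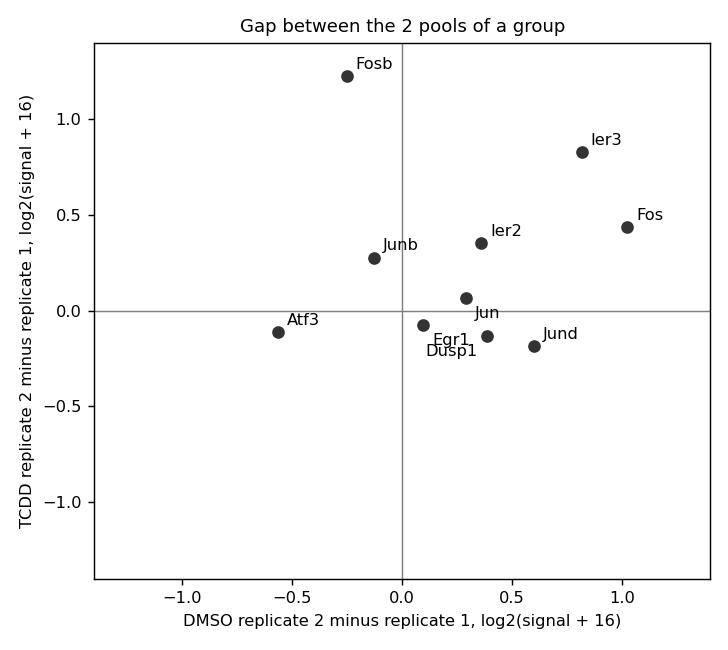
Replicate 2 minus replicate 1 on the log2(signal + 16) scale within DMSO (horizontal axis) and within TCDD (vertical axis), with 1 point for each of the 10 early genes. Fos, Ier3, Ier2 and Jun lie above 0 on both axes, and Fosb has the widest gap within TCDD at 1.23.

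Other genes of the early response leaned the same way as the 10, also without a call. They were listed with earlier results of these data known. Of 37 further early and delayed early genes listed, 31 were on the array and 22 reached the signal filter, with 25 probe sets. Of these 25, 23 had a higher mean in TCDD (51.1% over all probe sets), 2 a lower one and 0 passed limma's adjusted p, with 1 at an unadjusted p under 0.05. Their median log2 difference was 0.19, and it was 0.1 without DMSO replicate 1 and 0.34 without DMSO replicate 2. The count of 23 was the same after quantile normalization, and with 1 array left out between 79.2% and 84.6% of the list's probe sets were higher. Without the signal filter 27 of its 38 probe sets were higher (71.1%) and 11 lower. The filter is a mean over all 4 arrays. Nfil3 and a probe set each of Myc, Hbegf and Gadd45b passed it with a DMSO mean below its threshold. All of these count among the 23. Myc, Hbegf and Gadd45b are named here after their values were seen. The groups did not overlap for 9 of the 25, all with TCDD higher, where 15.3% of all probe sets had that order. Nfil3 and that Gadd45b probe set are among the 9. The comparison shares all 4 arrays with that of the 10 genes, so it is no second measurement of them.

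Within this wider list the largest differences without overlap belonged to Nfil3, Sgk1, Rhob and Mcl1. Nfil3, a basic leucine zipper repressor, measured 41 and 54.1 on the DMSO arrays and 86.9 and 63.5 on the TCDD arrays. Sgk1, a serum- and glucocorticoid-induced kinase gene, read 63.4 and 79.5 in DMSO and 108.6 and 101.8 in TCDD. Rhob, a small GTPase gene of the early response, read 292.1 and 334.8 in DMSO and 479.1 and 398.6 in TCDD. Its log2 difference was 0.46 ± 0.2 (SE), and it was the 1 probe set of the list with an unadjusted limma p under 0.05 (0.0383, adjusted p 0.997). Mcl1, an anti-apoptotic BCL2 relative, read 160.1 and 161.9 in DMSO and 221.2 and 200.8 in TCDD. The largest difference of the list, 0.58, was that of Plk2, a polo-like kinase gene named after its values were seen, whose groups overlapped because its DMSO arrays read 161.6 and 372.7. The 2 probe sets with a lower mean, also named after their values were seen, were those of Socs3 (-0.04) and Nfkbia (101554_at, -0.08), both feedback inhibitors, and another probe set of Nfkbia (104149_at) differed by 0.18.

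The signalling genes upstream and the feedback genes had fewer probe sets in the comparison. Of 31 kinase cascade genes and nuclear regulators listed, 20 had a probe set and 10 passed the signal filter with 11 probe sets. Of these 11, 8 were higher and 3 lower in TCDD, with a median of 0.1, where 51.1% of all probe sets were higher. Without DMSO replicate 1 the count was 5 higher and 6 lower, and without the filter it was 13 and 16 of 29 probe sets. Nras, a RAS GTPase gene, measured 407.4 and 470.5 on the DMSO arrays and 521.7 and 493.6 on the TCDD arrays at 94362_at. Its other probe set (160925_at) overlapped. The groups did not overlap for this 1 of the 11 probe sets alone, where they did not for 29.8% of all probe sets. Of 13 feedback phosphatases and inhibitors 5 had a probe set and 4 passed the filter, 3 lower and 1 higher. Of the 3, Spred2, named after its values were seen, was at -0.01. Without TCDD replicate 2 the count was 2 lower and 2 higher. At a mean signal of at least 100 it was 1 and 1, with a median of 0.08. Spry4, an inhibitor of receptor tyrosine kinase signalling, measured 103.9 and 79 on the DMSO arrays and 38.9 and 66.8 on the TCDD arrays, a log2 difference of -0.66 ± 0.26 (SE, limma adjusted p 0.997). Dusp2, a nuclear phosphatase related to Dusp1, read 100.5 and 81.1 in DMSO and 66.1 and 73.3 in TCDD, so its order was opposite to that of Dusp1. Spry4 and Dusp2 were the 2 of the 4 without overlap of the groups, too few to set against the 29.8% of all probe sets. Dusp6, an ERK phosphatase gene named after its values were seen, read 474.5 and 825 in DMSO and 704.5 and 719.9 in TCDD.

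Heat shock genes, another readout of cell stress, lay close to 0. Of 11 measured, 8 were higher and 3 lower in TCDD, where 51.1% of all probe sets were higher. Their median log2 difference was 0.02, and 0 passed limma's adjusted p (0 at an unadjusted p under 0.05). Without DMSO replicate 1 the count was 4 higher and 7 lower, and without TCDD replicate 2 it was 5 and 6. The groups did not overlap for 3 of the 11, near the 29.8% of all probe sets. Of these, Hsph1, a large chaperone gene, was higher on both TCDD arrays (186 and 211.6 against 227.8 and 279.3), as was Hmox1, the heme oxygenase gene (261 and 184.5 against 268.7 and 261.6). Hspa8, the constitutive chaperone HSC70, was lower on both (1304.3 and 1249.6 against 1205.3 and 1127.3).

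**Figure D4:**
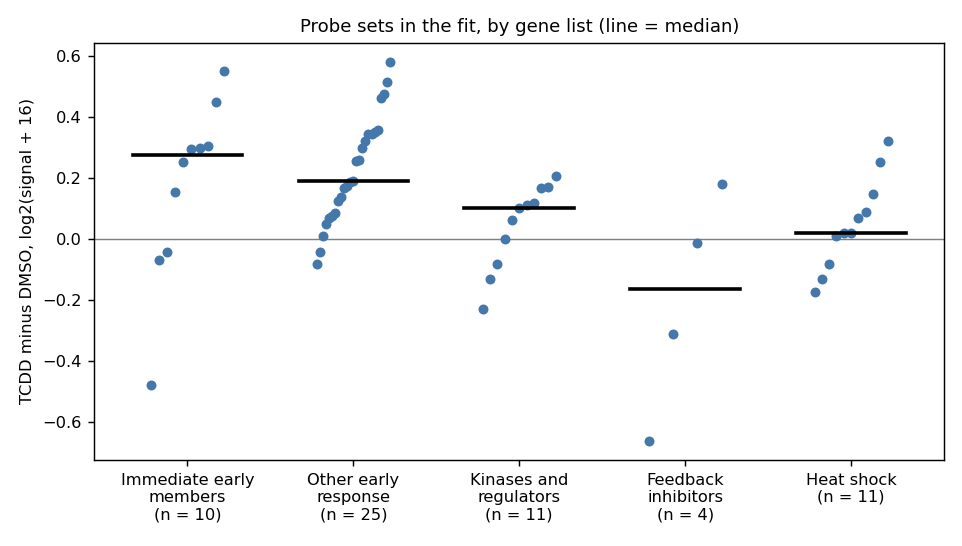
Log2 difference, TCDD minus DMSO, on the log2(signal + 16) scale (vertical axis) of every probe set in the fit for the 10 early genes and 4 related lists; points are probe sets, ordered within a list, and lines are medians. The medians are 0.27 for the early genes, 0.19 for the other early response genes, 0.1 for kinases and regulators, -0.16 for feedback inhibitors and 0.02 for heat shock genes.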

How the data were processed

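The authors hybridised 4 RNA pools to 4 arrays, and the deposited values are MAS5 signal intensity per probe set, made with Microarray Suite 5.0 and scaled to a target signal of 100, per the labels. No detection calls were used here. In 37.1% of the deposited cells a spreadsheet day serial stood in place of a signal under 32. These were turned back into day.month, after which the trimmed mean was 100.05 on every array. All 10 probe sets of the early genes in the fit were free of serials, and the 5 dimmer ones held 15.

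Symbols came from the platform annotation (probe sets with 1 symbol), with Entrez IDs looked up in the GRCm38.p6 gene table. Log2(signal + 16) was fitted in limma 3.58.1 (R 4.3.3, lmFit, eBayes with trend), control probe sets left out, mean signal of at least 50, Benjamini-Hochberg threshold 0.05. The procedure was tested on simulated data with planted changes and independent noise on each array. No detection rate from it is given here, so it does not show which of the present differences could be found. An exact permutation test of 2 arrays against 2 cannot go below a two-sided p of 0.333 and was not run. The array number limits precision. Promoter letters are RefSeq's.

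All member probe sets are named, and of each related or marker list up to 4 genes with the largest difference without overlap of the groups. Other genes are marked. Members and lists were chosen with earlier results of these data known. Egr1 and Ier2 promoters were not used here. Alternatives were the offset, the filter, quantile normalization, the trend, the serials, a block for replicate number, probe sets merged by gene, and each array left out.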

Additional observations from a re-analysis of the deposited data

How the results depend on the processing

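No early gene passed limma's adjusted p under any alternative, with 0.243 the lowest (Ier3, with the replicate block). Of 116 differences recomputed for the 10 genes, 109 kept their direction and 7 reversed. The filter, trend, serial and block settings left each gene's difference unchanged by design, so their values could only keep the direction. The reversals all came with an array left out or with quantile normalization. With 1 array left out, those of Fos ranged from -0.26 to 0.76, of Fosb from -1.09 to 0.13, of Junb from -0.18 to 0.096 (0.02 without DMSO replicate 1), of Jund from -0.14 to 0.45 and of Atf3 from -0.35 to 0.21. Junb was at 0.0087 after quantile normalization. The cause was not tested. The median of 0.27 over the early genes ranged from 0.13 to 0.45 with 1 array left out (0.13 without DMSO replicate 1 or TCDD replicate 2, 0.45 without DMSO replicate 2), and was 0.12 without the filter, over 15 probe sets. It was 0.18 and 0.3 with offsets of 64 and 1, and 0.14 when all probe sets of each gene were averaged.

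Over all probe sets, 2 passed without the filter, and 2 to 5 with 1 array left out (2 without DMSO replicate 1 or TCDD replicate 2), where the lone array of a group is assumed to vary like the others. With the replicate block 32 passed instead of 4, none of them an early or related gene. The gaps between replicates correlated at 0.38 between the groups (across probe sets, which are not independent), but no label says that equal numbers share a source, so they were not treated as pairs; the starting RNA and the muscle gene sums also differ by replicate number. Signal over background is unknown without detection calls.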
